A study of Arabidopsis thaliana with 18 samples.

Results

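The MADS-box transcription factor (TF) FLC was mapped by ChIP-seq in *Arabidopsis thaliana* seedlings, and the genic sites at which it was called without its partner SVP are described here. A site was a member when an FLC peak had an assigned gene and shared not even 1 bp with an SVP:GFP peak of either genotype. The members were therefore chosen by the peak calls themselves, so their number, their presence in each genotype, their fold-enrichment and their −log10(*P*) are given as descriptions without a test. Of the 734 FLC peaks, 454 had an assigned gene and 207 were members, namely 77 of 315 WT peaks and 130 of 419 *svp-41* peaks. After merging peaks of both lists that overlapped, 179 sites remained, and 292 genes were assigned to them. "FLC only" means that no SVP:GFP peak was called there, since a weaker SVP:GFP signal is not visible in lists of called peaks.

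The 18 samples were seedlings 2 weeks old, in 6 groups of 3 samples. The labels give Columbia-0 with *FRI*, which keeps *FLC* active, as the ecotype of every sample, although the names of the *35S::GFP* controls do not include *FRI*. FLC was precipitated with an antiserum from *SVP FLC FRI* plants (WT) and from the loss-of-function mutant *svp-41*, with the double mutant *svp-41 flc-3* as the control for both FLC lists, since it lacks both TFs. SVP:GFP was driven by the *SVP* promoter in plants without native SVP (*svp-41*) and precipitated through its GFP tag, with *FLC* either functional or mutated (*flc-3*). The control for both SVP:GFP lists was *35S::GFP*. The labels give long days and the methods of the study short days as the growth condition. The deposited lists merge the 3 replicates of a group, so a value has no replicate error, and the depth behind it is unknown. Whether the fold-enrichment and −log10(*P*) of a merged peak come from 1 replicate or from pooled reads is not given in the sources used here. The lists of FLC in WT and in *svp-41* share their control, and so do both lists of SVP:GFP, and the supplementary methods describe control samples pooled for peak calling.

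FLC represses flowering until winter cold silences its gene, and FRI keeps *FLC* expressed before that cold. MADS-box TFs bind DNA as dimers at CArG-boxes, A/T-rich stretches framed by CC and GG, and SVP is a known dimer partner of FLC in repressing flowering genes. The G-box, CACGTG, is the binding sequence of bHLH and bZIP TFs. The study reports that it co-occurs with CArG-boxes in regions bound with both FLC and SVP present. The study also reports the G-box in FLC peaks called in WT only or in both genotypes, but not in those called in *svp-41* only. These sets of FLC peaks include the sites described here.

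A CArG-box, written as CC, 6 A or T and GG, occurred within the 200 bp centred on the summit at 14 of the 179 FLC-only sites. The sequences below are 30 bases of the plus strand of TAIR10.1 around 8 of those boxes, shown because they range from the strongest such site to the one at a MADS-box gene. Capitals mark the CArG-box.

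*AT1G72500* (chr1:27294486-27294515): caaattctttCCAATTATGGaatgttttct
*AT3G51450*/*RHD4* (chr3:19092415-19092444): aggaaagtttCCATTTTAGGaaggagcatt
*TT7*/*E13L3* (chr5:2561321-2561350): cacattgtttCCTTAAATGGaaggtctcac
*AT5G24830* (chr5:8529537-8529566): ggcggtcttaCCTAAAATGGataaggccat
*ACX4*/*CPK13* (chr3:19230912-19230941): tgatgggtttCCAAAAATGGtaagtagaaa
*ST2A* (chr5:2177534-2177563): actgaattatCCATATTTGGacagataccc
*SWEET2* (chr3:4959458-4959487): tatatgcggtCCATATTTGGctttgtctac
*AGL18* (chr3:21233610-21233639): agcaaagccaCCAAATATGGaaaattgcta

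The first of these, at *AT1G72500*, lay at a site called in both genotypes that also had a G-box, and the last lay in the transcribed leader of *AGL18*. Of the 14 boxes, 12 were centred within 50 bp of the FLC summit. G-boxes occurred at 12 sites, 2 of which also had a CArG-box, and 6 of the 14 G-boxes at these sites were centred within 50 bp of the summit. The next 4 sequences show G-boxes, in capitals, in 26 bases of the plus strand. The first 3 are from sites called in WT only, where G-boxes were most frequent, and the last is from a site called in *svp-41* only.

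*PDC2* (chr5:22312886-22312911): ctgagattgaCACGTGtccttatata
*NAC3* (chr3:5234108-5234133): cattcacttaCACGTGttttttcttc
*ERS1* (chr2:17087286-17087311): gagggaagttCACGTGttataggcct
*TPS1* (chr1:29563550-29563575): agacaaaaacCACGTGaattcggata

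Most of the strongest FLC-only sites had neither motif. The 200 bp around 4 of their summits, in which every base lies outside annotated UTRs, are shown for that reason. Capitals mark shorter or looser CArG-like stretches, namely CC, 5 to 7 A or T and GG, or C, 8 A or T and G.

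*ALC* (chr5:26786447-26786646): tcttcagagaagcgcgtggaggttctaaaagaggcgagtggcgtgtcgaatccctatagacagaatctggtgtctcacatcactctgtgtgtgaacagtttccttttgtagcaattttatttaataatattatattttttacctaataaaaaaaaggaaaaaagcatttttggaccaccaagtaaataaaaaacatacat
*LAC10*/*AT5G01200* (chr5:75170-75369): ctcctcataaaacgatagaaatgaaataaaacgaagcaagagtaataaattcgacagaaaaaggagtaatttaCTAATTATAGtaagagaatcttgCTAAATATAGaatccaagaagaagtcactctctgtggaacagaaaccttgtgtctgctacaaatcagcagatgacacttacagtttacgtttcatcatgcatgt
*AT1G20823* (chr1:7236218-7236417): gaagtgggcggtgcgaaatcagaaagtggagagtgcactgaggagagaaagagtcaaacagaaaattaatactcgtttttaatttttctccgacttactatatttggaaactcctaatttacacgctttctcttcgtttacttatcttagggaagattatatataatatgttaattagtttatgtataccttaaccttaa
*AT5G28410* (chr5:10356649-10356848): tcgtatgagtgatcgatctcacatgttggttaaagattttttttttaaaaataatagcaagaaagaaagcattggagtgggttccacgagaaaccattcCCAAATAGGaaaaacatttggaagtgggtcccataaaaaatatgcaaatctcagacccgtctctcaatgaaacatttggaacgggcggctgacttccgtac

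The *ALC* window held neither of these looser forms, and nor did that of *AT1G20823*. The window at *LAC10*/*AT5G01200* held 2 stretches of C, 8 A or T and G, and the window at *AT5G28410* held a box with 5 A or T.

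FLC-only sites were most often called in a single genotype. Of the 179 sites, 49 (27.4%) were called in WT only, 102 (57.0%) in *svp-41* only and 28 (15.6%) in both. Among the 160 genic FLC sites that overlapped an SVP:GFP peak, 48 (30%) were called in WT only, 25 (15.6%) in *svp-41* only and 87 (54.4%) in both. The FLC lists have different lower limits, since the lowest −log10(*P*) was 4.33 in WT but 9.24 in *svp-41*. The SVP:GFP lists, whose peaks define the members, stopped at higher values, 17.2 with functional *FLC* and 11.4 in *flc-3*. A site could thus lack an SVP:GFP call at a −log10(*P*) at which FLC was called. Of the 49 sites in WT only, 28 had a −log10(*P*) below the lowest value in the *svp-41* list, and 21 were at or above it. With that value as the minimum for both FLC lists, 21 sites were called in WT only, 119 in *svp-41* only and 11 in both. Of the sites in WT only, 1 had an FLC peak of *svp-41* within 1 kb, and of the sites in *svp-41* only, 12 had an FLC peak of WT within 1 kb. FLC signal below the calling limit in the other genotype was not measured here.

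In fold-enrichment, the ratio of the FLC sample to the control in the authors' peak calling, the members were modest. The 77 member peaks in WT had a median fold-enrichment of 3.07 (range 1.32 to 7.25) and a median −log10(*P*) of 8.66 (4.42 to 45.5). The 135 genic peaks in WT that overlapped SVP:GFP had medians of 3.77 (1.46 to 16.4) and 13.8. In *svp-41*, the 130 member peaks had a median fold-enrichment of 3.61 (1.44 to 9.16) and a median −log10(*P*) of 13.6 (9.24 to 68.4). The 112 genic peaks that overlapped SVP:GFP in *svp-41* had medians of 4.64 (1.67 to 17.0) and 23.8. The ranges of members and SVP-overlapping peaks overlapped in both lists, and the highest peaks of each list were SVP-overlapping. A fold-enrichment of at least 5 was reached by 1 member peak in WT and by 25 in *svp-41*.

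**Figure D1:**
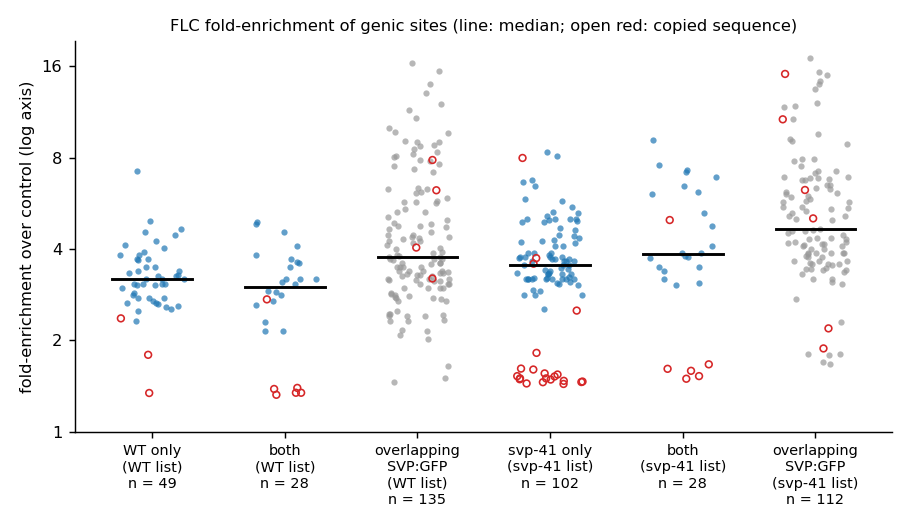
FLC fold-enrichment over control (log axis) of genic sites called in WT (left) or *svp-41* (right); each point is a site, the line is the median, blue points are FLC-only, grey points overlap SVP:GFP, and open red circles lie at copied sequence. Most open circles of FLC-only sites sit below a fold-enrichment of 2, below the single-copy FLC-only sites, whose lowest value was 2.31 among sites in WT only and 2.54 among sites in *svp-41* only.

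Among the 49 sites called in WT only, the strongest lay upstream of *ALC* (AT5G67110, chr5:26786323-26786742), which encodes a bHLH TF needed for opening of the fruit. Its summit was 116 bp upstream of the gene, its fold-enrichment was 7.25 and its −log10(*P*) was 45.5, which ranked 31 of the 315 peaks in WT. The second, between *AT5G39960*, annotated as a GTP-binding protein, and *AT5G39970* (chr5:15997397-15997648), had a fold-enrichment of 4.96 and a −log10(*P*) of 21.6. *ALC* thus stood above the rest of the class, whose median fold-enrichment was 3.18. The third was at *SPL15* (AT3G57920, chr3:21445801-21446182), whose product promotes the vegetative phase change and flowering at the shoot apex. There the summit was 76 bp inside the gene from its start, in the transcribed leader, with a fold-enrichment of 4.67 and a −log10(*P*) of 18.2. The fourth site was assigned to the lncRNA gene *AT3G24518* (chr3:8943892-8944166), with a fold-enrichment of 4.56. The fifth lay 2250 bp upstream of the miRNA gene *MIR824* and 686 bp downstream of *AT4G24410* (chr4:12622746-12622926), with a fold-enrichment of 4.43. The miRNA of *MIR824* is known to target the MADS-box gene *AGL16*.

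Sites called in *svp-41* only reached higher values. The strongest lay between *LAC10*, a laccase gene, and *AT5G01200*, annotated as a homeodomain-like protein (chr5:74997-75466), with a fold-enrichment of 8.11 and a −log10(*P*) of 64.1. Its summit was 501 bp downstream of *LAC10* and 1602 bp upstream of *AT5G01200*. A site between *AT3G12180*, a Cornichon family gene, and *AT3G12190* (chr3:3884987-3885461) had a fold-enrichment of 8.34 and a −log10(*P*) of 58.6. At *P5CR* (AT5G14800, chr5:4787600-4788110), which encodes the last enzyme of proline synthesis, the summit was 124 bp inside the gene and the fold-enrichment was 7.98. The 200 bp around that summit matched 1 other place in the genome, so its reads may come from either. At the 3' end of *SPT1*, a serine palmitoyltransferase gene of sphingolipid synthesis, and 164 bp upstream of *AT3G48790* (chr3:18092878-18093323), the fold-enrichment was 6.76. The fifth site lay within *AT1G04500*, a CCT motif gene (chr1:1223318-1223619), with a fold-enrichment of 6.45. Unlike the WT class, in which 1 site exceeded 5, these 5 sites all exceeded 6. The same sites had no FLC peak in the WT list. Higher values were not limited to this class. Over all peaks, the median fold-enrichment was 3.645 in the *svp-41* list and 3.284 in the WT list, and the median −log10(*P*) was 15.6 and 10.4, respectively.

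The 28 sites called in both genotypes had summits close together and, mostly, higher values in *svp-41*. Their summits in WT and *svp-41* lay a median of 19.5 bp apart (largest gap 133 bp), and 25 of 28 lay within 50 bp. SVP-overlapping sites called in both genotypes had a similar median gap, 19 bp. Fold-enrichment was higher in *svp-41* at 25 of 28 sites, with a median ratio of *svp-41* to WT of 1.38 (0.840 to 2.88). At the 87 sites that overlapped SVP:GFP and were called in both genotypes, it was higher in *svp-41* at 59, with a median ratio of 1.32 (0.237 to 3.19). The ratios were not scaled for the depth of the libraries, which is unknown, so they do not separate binding from depth, and no test was made. The calling limits differed too, since the lowest −log10(*P*) was 9.24 in the *svp-41* list but 4.33 in the WT list. In WT the 28 sites had a median −log10(*P*) of 8.39, below the lowest value of the *svp-41* list. Among sites called in both genotypes, these limits favour a higher value in *svp-41*.

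**Figure D2:**
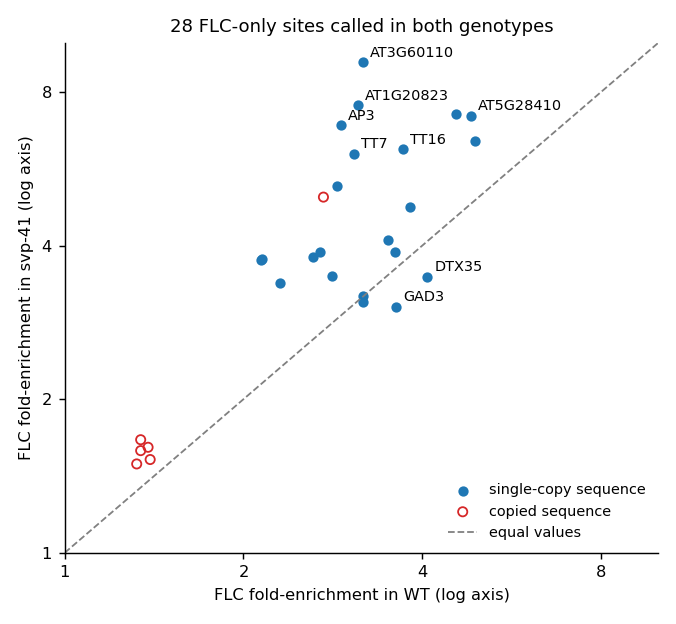
FLC fold-enrichment in WT (x axis, log) and in *svp-41* (y axis, log) at the 28 FLC-only sites called in both genotypes; each point is a site and the dashed line marks equal values. At 25 of the 28 sites the value is higher in *svp-41*, with *AT3G60110* the farthest above the line, and the cluster of open circles at lower left lies at copied sequence. The lowest −log10(*P*) of the *svp-41* list was above that of the WT list, which favours higher values in *svp-41* among these sites.

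The widest gap was at *AT3G60110* (chr3:22197322-22197847), annotated as a bromodomain protein, where fold-enrichment was 3.18 in WT and 9.16 in *svp-41*. At *AT1G20823* (chr1:7236058-7236604), a RING/U-box gene whose start lay 2375 bp from the summit, it was 3.12 in WT and 7.55 in *svp-41*. Its −log10(*P*) of 68.4 was the highest of all members in *svp-41*, at rank 26 of 419. *AP3* (AT3G54340, chr3:20120905-20121492), the MADS-box gene that specifies petals and stamens, had a fold-enrichment of 2.92 in WT and 6.88 in *svp-41*, with the summit 66 bp inside the gene. These 3 were the sites with a ratio above 2. *AT5G28410* (chr5:10356523-10356964) had 4.83 in WT and 7.19 in *svp-41*, and the downstream site of *AT1G72500* had 4.56 and 7.26. At *TT7*, the flavonoid 3′-hydroxylase gene (chr5:2561092-2561581), the values were 3.07 and 6.06, with the CArG-box shown above in an intron. The opposite order was found at the sites of *DTX35* (4.08 in WT and 3.48 in *svp-41*), *GAD3* (3.62 and 3.04) and *AGP15* (3.18 and 3.10).

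Genes of the MADS-box family and of flowering time were among the assigned genes. As background, 0.980% of the 27444 protein-coding genes of TAIR10.1 were assigned to an FLC-only site and 0.896% to an FLC peak that overlapped SVP:GFP. Of 40 MADS-box genes looked up by symbol, 4 (10%) had an FLC-only site, namely *AP3*, *TT16*, *AGL15* and *AGL18*, and 5 had an SVP-overlapping FLC peak. Of 83 genes of flowering time, 5 (6.02%) had an FLC-only site, namely *SPL15*, *PHYB*, *FRI*, *FIO1* and *MIR156b*, and 11 had an SVP-overlapping FLC peak. Both shares lie above the background, but the lists were chosen with earlier results of these data known, so the comparison is a description. Of 42 gibberellin genes, 1 had an FLC-only site, *MIR159a*, and 2 had an SVP-overlapping peak. No FLC-only site was assigned to any of 27 jasmonate genes or of 20 cold-response genes, and 4 of each list had an SVP-overlapping FLC peak. At the background of 0.980%, lists this short would often hold no gene with an FLC-only site, so that absence is no result about these sites. Whether FLC-only and SVP-overlapping sites differ in these lists was not tested.

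*TT16* encodes a MADS-box TF of the seed coat, and its site (chr5:7833191-7833633) lay 2591 bp upstream, with a fold-enrichment of 3.71 in WT and 6.18 in *svp-41*. *AGL15* and *AGL18* encode related MADS-box TFs that delay flowering together. The site of *AGL15* (chr5:4450884-4451259), with its summit 131 bp upstream, had a fold-enrichment of 2.83 in *svp-41*, and that of *AGL18* (chr3:21233479-21233695), 166 bp inside the gene, had 2.54. Neither was called in WT, and their −log10(*P*) of 9.50 and 9.30 were close to the lowest value of the list, 9.24. *AP3* and *TT16* were thus the only genes of these lists called in both genotypes.

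Of the 5 flowering-time genes, 4 had their site in WT only. The −log10(*P*) of 8.11 at *PHYB* and of 8.66 at *FRI* lay below the lowest value of the *svp-41* list, 9.24, whereas *SPL15* at 18.2 and *MIR156b* at 13.5 lay above it. With that value as the minimum for both lists, 7 of the 10 genes of the lists looked up by symbol were left. *MIR156b*, one of the genes of the miRNA that keeps plants juvenile by repressing SPL genes such as *SPL15*, had a site 2250 bp upstream (chr4:15072438-15072742), inside an intron of *AT4G30970*, with a fold-enrichment of 3.92 in WT. The site of *PHYB*, the red light photoreceptor gene, lay 692 bp upstream (chr2:8138961-8139165), with a fold-enrichment of 3.07 in WT. It lay 922 bp upstream of the F-box gene *AT2G18780* as well. *FRI*, the activator of *FLC* itself, had a site 710 bp downstream of the gene (chr4:272178-272286), with a fold-enrichment of 3.18 in WT, and this site lay nearer to the start of *AT4G00651*, at 334 bp. *FIO1* encodes a methyltransferase that acts on RNA. Its site (chr2:9037825-9038063), called in *svp-41* with a fold-enrichment of 3.82, lay 2886 bp upstream and was only 184 bp upstream of *GRP2B*, a glycine-rich protein gene. Assignment to these genes thus rests on the 3 kb window and does not show which gene of a pair is regulated.

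Of 326 miRNA genes, 4 (1.23%, a share close to that of protein-coding genes) had an FLC-only site. Beside *MIR824* and *MIR156b*, these were *MIR159a* (chr1:27714867-27715068), whose miRNA targets GAMYB-like genes, and *MIR169a* (chr3:4359933-4360266), whose miRNA targets NF-YA genes. The fold-enrichment was 2.65 in WT at *MIR159a* and 3.19 in *svp-41* at *MIR169a*. The site of *MIR159a* was 26 bp inside the start of *CDKD1;1*, a cyclin-dependent kinase gene.

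**Figure D3:**
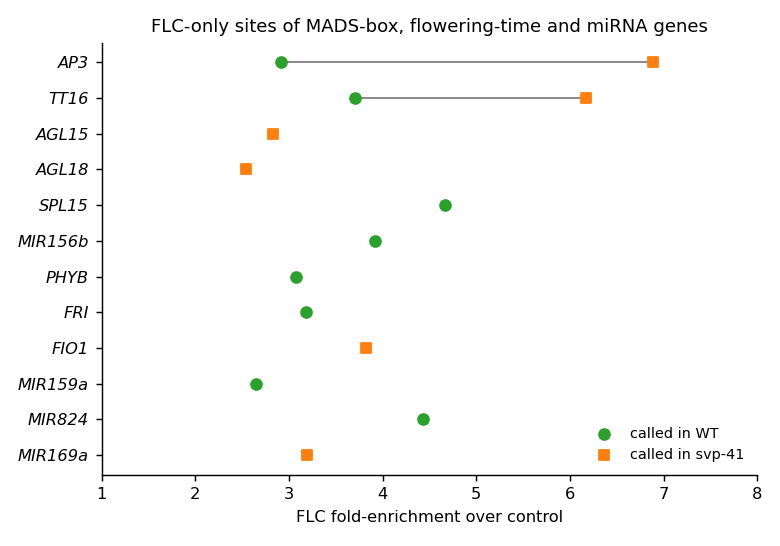
FLC fold-enrichment over control at the FLC-only sites assigned to MADS-box, flowering-time and miRNA genes; circles are values in WT, squares are values in *svp-41*, and a line joins the values of 1 site. *AP3* and *TT16* are the 2 genes with values in both genotypes, and both are higher in *svp-41*.

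Among classes of genes defined by their annotated product, the counts stayed low. Cytochrome P450 genes had 5 of 248 members (2.02%), namely *CYP89A9*, *CYP707A4*, *CYP706A4*, *CYP706A5* and *TT7*, and 0 with an SVP-overlapping FLC peak. The pair *CYP706A4* and *CYP706A5* shared 1 site. Zinc finger genes had 7 of 509 (1.38%), kinases 16 of 1347 (1.19%), bHLH genes 2 of 133 (1.5%), MYB genes 2 of 179 (1.12%) and NAC genes 1 of 80 (1.25%), shares near the background of 0.980%. F-box genes had 1 of 653 (0.153%), ribosomal protein genes 1 of 344 (0.291%) and disease resistance genes 1 of 194 (0.515%). Genes whose product is worded as receptor-like had 0 of 426. The classes rest on the wording of the product, so they can miss genes and can take in genes that only share a word with the class. The receptor-like kinase gene *NIK1*, which had an FLC-only site, was counted with the kinases only. These are counts with no test.

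Most of the assigned genes had no SVP:GFP peak, though the share with one elsewhere was above that of all protein-coding genes. Of the 292 genes, 274 were assigned to no SVP:GFP peak at all, and 18 (6.16%) were also assigned to an SVP:GFP peak that did not overlap the FLC-only site. All 18 are protein-coding, and they make up 6.69% of the 269 protein-coding genes with an FLC-only site, while 2.92% of all protein-coding genes were assigned to an SVP:GFP peak. They include the NAC TF gene *NAC3*, *THH1*, *PER4*, *ST2A*, *SLK2* and *AGP15*. Of the 292 genes, 8 were also assigned to an FLC peak that overlapped SVP:GFP, *NAC3* among them. Of all protein-coding genes, 0.896% were assigned to such a peak. None of *ALC*, *SPL15*, *AP3*, *TT16*, *FRI*, *PHYB* or the 4 miRNA genes had an SVP:GFP peak. The study, however, shows *SPL15* as a gene whose binding depends on the complex of FLC and SVP, and *AP3* as independent of that complex. Its wider set of genes for the complex, which holds *SPL15*, might include genes with a single TF bound in WT.

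The median distance from an FLC-only site to the nearest SVP:GFP peak was 59080 bp. The rule removed overlapping sites, and no distance was computed for other positions of the genome, so this value is a description only. Just inside the rule were a site at *AT2G07981*/*AT2G08986* 113 bp from an SVP:GFP peak in *flc-3* and a site at *AT4G08760* 133 bp from one in WT. Next came a site 316 bp away at *AT1G54920*, called in both genotypes with a fold-enrichment of 4.90 in WT and 6.43 in *svp-41*. Just outside the rule was the FLC peak of *FT*, the gene of the mobile flowering signal, in *svp-41*, which shared 94 bp with an SVP:GFP peak in *flc-3*. Within 200 bp of an SVP:GFP peak lay 2 of the 179 sites, and within 1 kb lay 8.

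The position of the summits is a description, since FLC-only and SVP-overlapping sites alike were limited to peaks with a gene in the window of assignment. The summit lay upstream of a protein-coding gene and outside genes at 90 sites, in a 5′ UTR at 29, in an intron at 19, in coding sequence at 17, downstream at 12, in a 3′ UTR at 10 and elsewhere at 2. A gene start lay within 1 kb of the summit at 106 sites (59.2%), and at 96 of the 160 SVP-overlapping sites (60.0%). More than 1 gene was assigned to 102 of the 179 sites. The median A+T content of the 200 bp around the summit was 65.5% at FLC-only and 66.5% at SVP-overlapping sites.

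**Figure D4:**
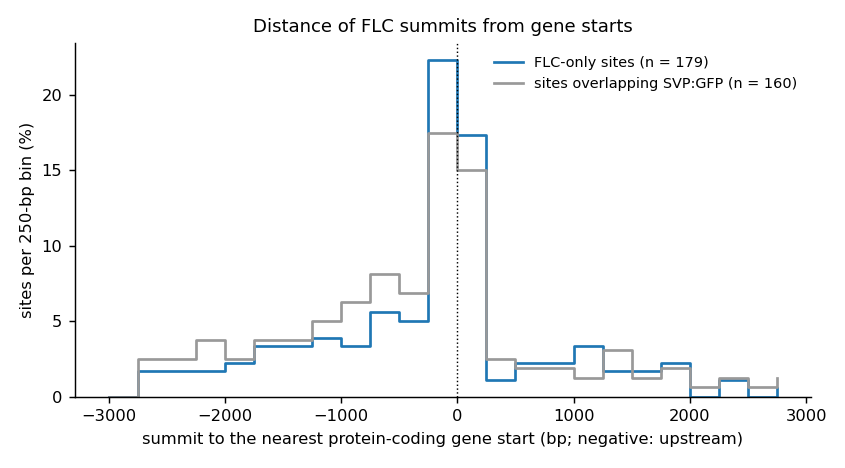
Distance from the FLC summit to the nearest protein-coding gene start (x axis, bp, negative values upstream) against the share of sites per bin (y axis, %), for the 179 FLC-only sites (blue) and the 160 sites that overlapped SVP:GFP (grey). Both sets were limited to peaks with an assigned gene, both distributions peak at the gene start, and 22 and 8 sites, respectively, lie beyond the 3 kb shown on either side.

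Motifs and copied sequence were not used to choose the members, so their shares were compared by Fisher's exact test (two-sided, Benjamini-Hochberg adjustment over 12 tests, those of the upstream share included). Intervals are 95% Wilson intervals and cover counting error only. A CArG-box was found at 7.82% of FLC-only sites (interval 4.72 to 12.7%) and at 18 of 160 SVP-overlapping sites (11.2%, 7.24 to 17.1%). The difference of −3.43 percentage points (−10 to 2.89) did not pass the test (Fisher's exact test, *P* = 0.353, adjusted *P* = 0.529). Of all 200-bp windows of the genome, 1.23% held a CArG-box. With C, 8 A or T and G, the shares were 25.1% and 24.4%, beside 13.4% of genome windows. A G-box was found at 6.70% of FLC-only sites and at 11.2% of SVP-overlapping sites, beside 2.19% of windows, and that difference of −4.55 points (−11.0 to 1.59) did not pass either (adjusted *P* = 0.432, Fisher's exact test). The share of summits upstream of a gene, given as a description because the rule required a gene nearby, was 50.3% against 55.6%.

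Copied sequence was the feature in which the sets differed by the test while neighbouring sites were counted separately. The 200 bp around the summit matched another place at 95% identity or more over 150 bp or more at 30 of 179 FLC-only sites (16.8%, 12 to 22.9%) and at 6 of 160 SVP-overlapping sites (3.75%, 1.73 to 7.94%). The difference was 13.0 percentage points (6.67 to 19.5; Fisher's exact test, *P* = 7.6e-05, adjusted *P* = 0.000912). Sites beside each other are not independent. Of the 30 sites, 16 lay in a single stretch of chromosome 2 (chr2:3612516-3627486) assigned to *AT2G07981* and *AT2G08986*, 14 of them to *AT2G08986*. When sites within 5 kb of each other were counted once, a choice made after the data were seen, the shares were 5.19% and 3.25% and the test was not passed (Fisher's exact test, *P* = 0.573, adjusted *P* = 0.982). With FLC peaks of −log10(*P*) of at least 20 only, the shares were 7.69% and 6.41% (adjusted *P* = 1.0, Fisher's exact test).

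All 16 sites of that stretch lay at copied sequence, and their fold-enrichment ranged from 1.32 to 2.36. In it 3 sites were called in WT only, 10 in *svp-41* only and 3 in both. The other genes with more than 1 FLC-only site and copied sequence were *AT1G40104* with 3 sites, *AT4G08760* with 3, the rRNA gene *AT2G01010* with 3 and *AT2G01008* with 2. Reads from repeated sequence cannot be placed at 1 copy, and their part in these peaks was not tested. Outside copied sequence, *AT1G72500*, *AT3G50560*, the ovule gene *VDD* and the tRNA gene *AT5G18005* had 2 sites each. The 2 sites of *AT3G50560* were both in *svp-41* only, with fold-enrichments of 4.94 and 3.21.

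Within the FLC-only sites, no comparison of motifs or copied sequence between genotypes passed the test. A G-box was found at 7 of 49 sites in WT only (14.3%, 7.10 to 26.7%) and at 3 of 102 in *svp-41* only (2.94%, 1.01 to 8.29%), a difference of 11.3 points (2.38 to 23.9; Fisher's exact test, *P* = 0.0138, adjusted *P* = 0.0828). In windows of 400 bp the shares were 24.5% and 6.86%, which passed (Fisher's exact test, adjusted *P* = 0.022), and with 1 minimum of −log10(*P*) for both lists the direction turned, to 0% and 3.36%. The summit lay upstream of a gene at 31 sites in WT only (63.3%) and at 46 in *svp-41* only (45.1%), again as a description. Copied sequence was found at 3 (6.12%) and 21 (20.6%) sites, respectively (adjusted *P* = 0.117, Fisher's exact test). Of these, 3 and 10 lay in the stretch of chromosome 2, so they are not independent. With neighbours counted once the shares were 0% and 6.02% (adjusted *P* = 0.639, Fisher's exact test). CArG-boxes were found at 3 (6.12%) and 7 (6.86%), with a difference of −0.740 points (−8.49 to 10.2; adjusted *P* = 1.0, Fisher's exact test). Sites called in both genotypes had a CArG-box at 4 of 28 (14.3%, 5.70 to 31.5%) and those of a single genotype at 10 of 151 (6.62%), a difference of 7.66 points (−2.34 to 25.1; adjusted *P* = 0.479, Fisher's exact test). Their shares of G-boxes and of copied sequence differed by 0.520 and 5.53 points, with adjusted *P* of 1.0 and 0.774 (Fisher's exact test), and their share of upstream summits by −4.56 points.

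**Figure D5:**
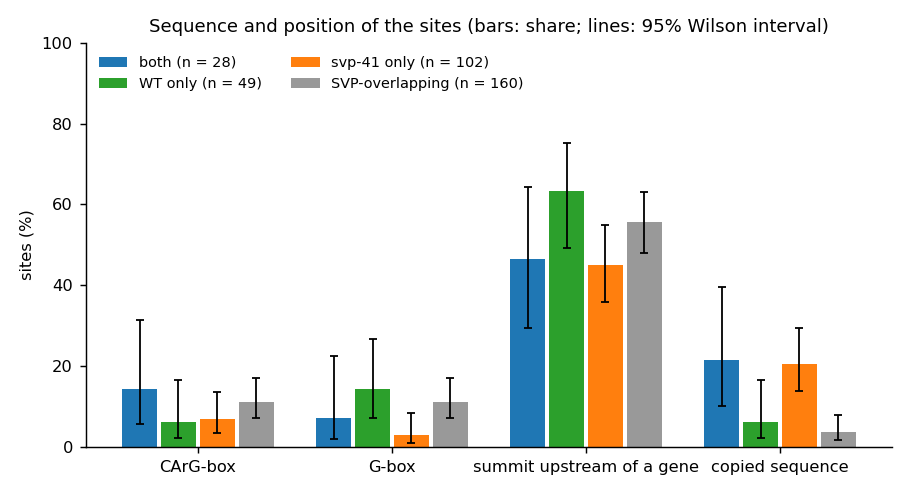
Share of sites (y axis, %) with a CArG-box, a G-box, a summit upstream of a gene or copied sequence, for FLC-only sites called in both genotypes, in WT only or in *svp-41* only and for sites that overlapped SVP:GFP; lines are 95% Wilson intervals. The G-box bar is higher in WT only (14.3%) than in *svp-41* only (2.94%), and the bars of copied sequence are lowest for WT only (6.12%) and SVP-overlapping sites (3.75%).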

How the data were processed

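ChIP-seq samples were grouped by GEO's labels. Per the labels and the methods of the study, the authors aligned reads to TAIR10 (Bowtie2 2.0.2, CASAVA 1.8), called peaks with MACS against controls (the methods name a control line for each TF, and the supplementary methods describe negative controls pooled to a single one, of fewer samples than the labels list), kept peaks reproducible between replicates at an IDR of 5% or less that NarrowPeaks also found, and merged the replicates. The deposited lists give each peak's start, end, summit offset and assigned genes, the fold-enrichment (a linear ratio to the control) and the −log10 p-value of the authors' calling; 0 columns of values were unused. Genes were assigned by the authors where a summit lay from 3 kb upstream to 1 kb downstream. Depth per sample is unknown.

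Members were found with Python 3.11.15, pandas 2.3.3 and SciPy 1.17.1. Members, gene lists and tests were chosen with earlier results of these data known. The site of a merged pair took the summit with the higher −log10(*P*). Coordinates were used with TAIR10.1 (RefSeq), in which 314 of 315 gene and summit pairs kept the authors' window, and 287 of 292 genes were matched. Copies were searched with blastn 2.17.0, genes were placed by protein-coding annotation, and bedtools 2.31.1 served to check overlaps. The overlap, motif and Fisher steps were tested on simulated data, and the position and copy steps on real genes and randomly drawn windows of the genome. The copy check covered exact copies only, so it says little about near copies. Named were the genes of the 5 sites with the highest −log10(*P*) in each class, genes of the lists looked up by symbol, genes with more than 1 site, and genes at the edge of the rule; other names were chosen after their values were seen.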

Additional observations from a re-analysis of the deposited data

How the results depend on the processing

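No paired analysis was possible because the deposited lists merge the replicates of each group, and for the same reason no replicate could be left out. The 179 sites became 177 when an SVP:GFP peak within 200 bp counted as overlap, 180 when the overlap had to cover 50% of the FLC peak and 193 with SVP:GFP peaks of −log10(*P*) of at least 20. Of 40 alternative counts, 33 stayed within 1.5 times. With FLC peaks of −log10(*P*) of at least 20, 39 sites, 35 of them in *svp-41* only and 2 in both genotypes, 69 genes and 2 genes of the symbol lists were left. Sites in both genotypes numbered 11 with 1 minimum for both FLC lists and 15 with the reference annotation from 1 kb upstream.

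Of 129 alternative tests, 101 kept their direction and side of the threshold. The difference in copied sequence between FLC-only and SVP-overlapping sites fell to 1.28 points with −log10(*P*) of at least 20 and to 1.95 with neighbours counted once, and neither passed. Between WT only and *svp-41* only, the G-box difference passed with the reference annotation (14.2 points), a 400-bp window (17.6) and peak midpoints (15.5), and it turned to −2.86 with −log10(*P*) of at least 20 and −3.36 with 1 minimum. With the reference annotation the upstream difference, a description, was 24.9, against 18.2 in the report's setting, and the copied difference (−18.5) also passed, as did copied sequence at 90% over 100 bp (−20.3). Differences that passed under no setting also turned. The CArG-box difference between FLC-only and SVP-overlapping sites was 0.765 with C, 8 A or T and G, and the upstream difference was 0.575 without copied sequence. Between WT only and *svp-41* only, CArG-boxes gave 1.12 with 1 minimum, 2.08 with the reference annotation, 0.320 at 400 bp and 1.54 with 5 to 7 A or T. Between both and single genotypes, −log10(*P*) of at least 20 gave −8.11 for CArG-boxes, −2.70 for G-boxes, 12.2 for upstream and −8.11 for copied sequence. There 1 minimum gave 28.4 for upstream and −10.2 for copied sequence, and upstream was 1.61 without copied sequence. G-boxes gave −0.407 with stricter SVP:GFP peaks, −0.230 with the reference annotation, −5.44 at 400 bp, −3.31 at 100 bp and −2.79 at midpoints. The causes were not tested. Counting neighbours once, and the alternatives for the sites in *svp-41* only and the symbol lists, were chosen after seeing the data.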
